A study of Ovis aries with 15 samples.

Results

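The 59 genes described here encode splicing factors and heterogeneous nuclear ribonucleoproteins (hnRNPs) expressed in the sheep mammary gland. They were taken by symbol from the 24691 features of the deposited table, as the HNRNP, SRSF, SF3A, SF3B, SNRP, PRPF, U2AF and TRA2 genes with at least 10 exon reads in at least 6 of the 15 libraries. All 59 genes whose symbol matched also met the read minimum, so none was lost to it. RNA came from the udders of primiparous Romney ewes aged 2 years, in late pregnancy (day 135 of gestation, 9 libraries) or in lactation (day 15 post partum, 6 libraries), and each library was made from RNA pooled over several ewes. The labels give 3 ewes per pool in late pregnancy and 2 in lactation, whereas the study's methods give 3. The ewes' own dams had been fed in early gestation either ad libitum (HM), at maintenance (MM) or below maintenance (LM), with 3 late pregnancy pools and 2 lactation pools from each dam group. The tissue was a needle biopsy of mammary parenchyma.

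Splicing removes introns from a transcript and joins its exons in the nucleus. Small nuclear ribonucleoproteins (snRNPs), each an RNA with its SNRP proteins, recognise the ends of the intron and assemble with the SF3A, SF3B, U2AF and PRPF proteins into the spliceosome. SR proteins and the related TRA2 proteins mostly bind exons and favour their inclusion, while hnRNPs coat nascent transcripts and often act against it, so the balance between both families can shift which exons are kept. At the end of pregnancy the gland is still growing, and in lactation a few milk protein genes dominate its RNA.

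That domination set the scale of the values. Between 7597938 and 25679416 reads per library fell on genes, and 7 milk protein genes held 13.7 to 23.4% of exon reads in the pregnant ewes but 71.3 to 75.8% in the lactating ewes. The share of the 59 genes was 0.971 to 1.13% and 0.255 to 0.305%, and with the milk protein genes left out 1.24 to 1.31% and 1.03 to 1.13%. Levels are therefore given as CPM, exon reads scaled to a common library size with TMM factors, which assumes that most genes do not change, and changes as log2 of lactation over late pregnancy. Under TMM the median change of all 13345 genes tested was -0.03. It was -1.94 when only library size was used, -0.24 with library size counted without milk protein genes and -0.18 with upper quartile scaling, so a direction given below is relative to most other genes and not to the amount of RNA in the gland. In whole tissue, fewer cells of a type and less RNA per cell cannot be told apart. The ewes were biopsied in late pregnancy and again in lactation, so pools of both states share animals, but which pools share which ewes is not given. The tests treat the 15 libraries as independent, and p-values measure the spread between these pools.

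The 59 genes were expressed in both states, and most changed little in level. Exon reads of 23 genes were lower in lactation and of 14 higher (adjusted p under 0.05, edgeR quasi-likelihood test), while 22 did not pass. Of all genes tested, 35.2% were lower and 33.1% higher, so a call was about as common among the splicing genes as elsewhere. Their changes were small. Only 2 were more than 2-fold lower, PRPF40B and the barely expressed SRSF12, and 0 were more than 2-fold higher, against 13% and 9.13% of all genes. The middle 50% of the changes spanned 0.41 on the log2 scale, compared with 0.94 for all genes. Among the 126 other splicing genes described below that span was 0.475, so it was not particular to the 59. In 23 of the 59 genes the 9 and the 6 libraries showed no overlap, as in 40.2% of all genes. The split of 23 lower and 14 higher depended on the scaling, since it was 37 and 8 with upper quartile scaling, 41 and 6 with library size counted without milk protein genes, 39 and 9 with limma on the quantile-normalized RPKM, and 59 and 0 with library size alone.

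Levels between genes were compared as CPM per kb of exon. The most abundant was HNRNPH1, which binds G-rich stretches of RNA, at 201.4 in late pregnancy and 217.2 in lactation. HNRNPA2B1, a general packaging and export factor, followed at 172.3 and 211.6. Below this pair came HNRNPF at 97.5 and 82.0, HNRNPL at 95.4 and 97.8, SF3B1 at 89.7 and 67.9 and SRSF6 at 89.3 and 89.1, all in that order of state. At the other end, SRSF12 stood at 0.64 and 0.20. Of the 10 most abundant genes in late pregnancy, 6 were also among the 10 most abundant in lactation. SRSF11, SRSF5, SNRPD2 and SF3B1 left that group, and HNRNPAB, HNRNPK, HNRNPU and HNRNPA3 joined it.

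By gene group, 8 of 11 SR and TRA2 genes were lower and 0 higher, and 5 of 9 SNRP genes were lower and 0 higher, where 35.2% of all genes were lower and 33.1% higher. Of the SF3A, SF3B and U2AF genes 4 of 10 were lower and 1 higher, a share of lower genes near that of all genes. Of the PRPF genes 8 of 13 were higher and 2 lower under TMM scaling, though with library size alone all 13 were lower. Differences between the groups were not tested. The hnRNP genes divided, with 5 of 16 higher and 4 lower, and this too turned to 16 lower with library size alone. Relative to the median of all genes in the same fit, 9 of 11 SR and TRA2 genes lay below it and 10 of 13 PRPF genes above it under TMM, library size alone, upper quartile scaling and library size without milk protein genes. These scalings shift all genes of a library together, so equal counts follow almost by construction. With the quantile-normalized RPKM, which does not shift genes that way, the counts were 11 of 11 and 8 of 13.

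**Figure D1:**
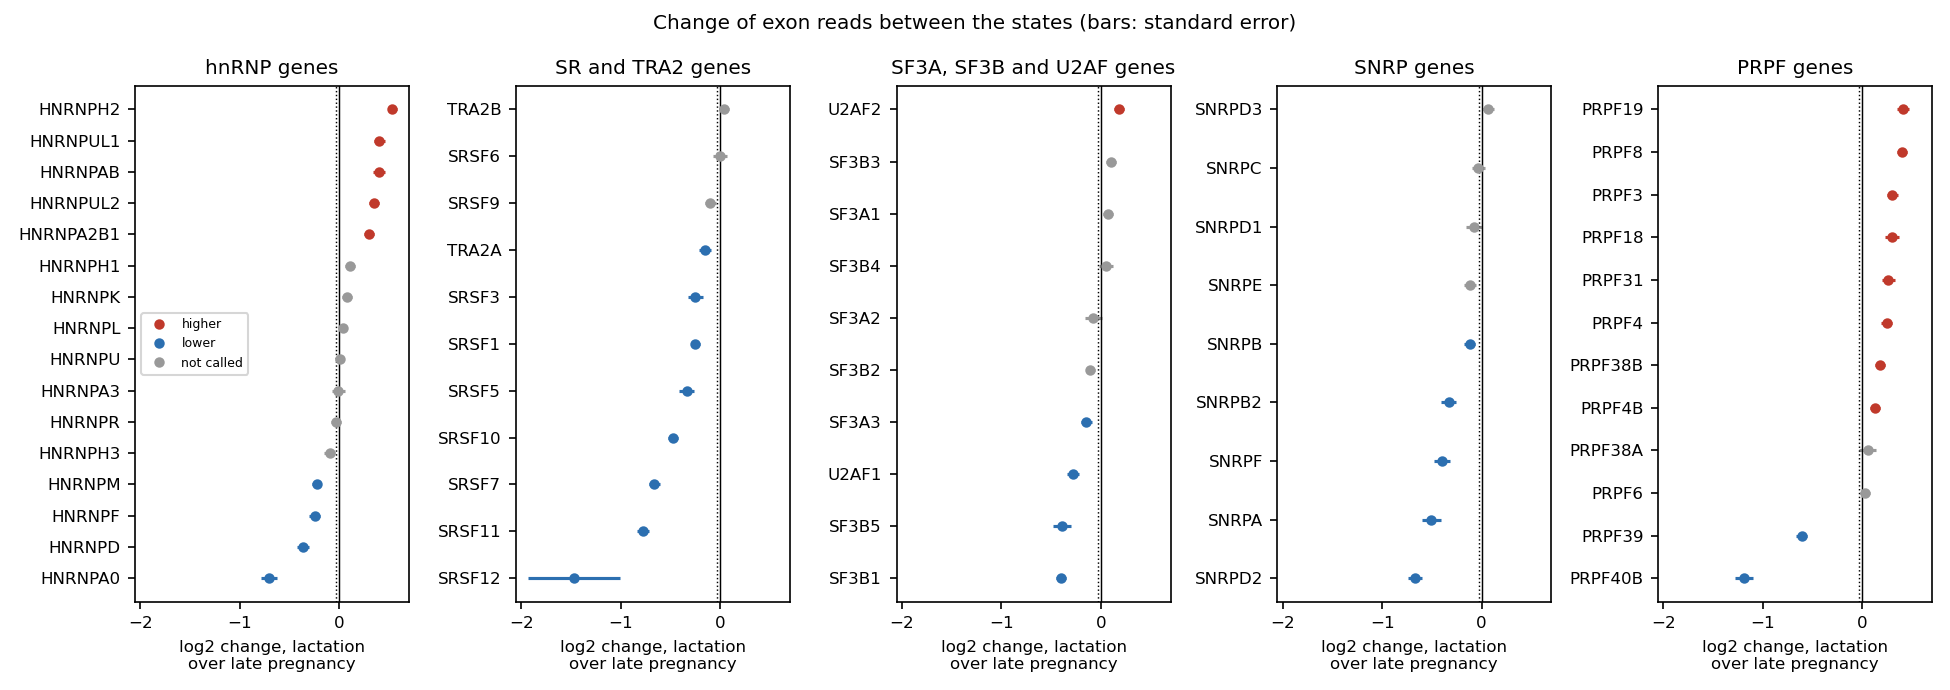
Log2 change of exon reads, lactation over late pregnancy, for 58 of the 59 genes in their groups, with the standard error as a bar; colours mark genes higher, lower or not called at an adjusted p of 0.05, and the dotted line marks the median of all genes tested. Of the SR and TRA2 genes 8 of 11 are called lower and of the PRPF genes 8 of 13 higher under TMM scaling, whereas all 59 genes are lower with library size alone.

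A share computed within the 59 genes does not depend on the scaling. Of their length-scaled reads, the hnRNP genes took 42.7 to 44.6% in the 9 late pregnancy libraries and 47.8 to 48.8% in the 6 lactation libraries. The SR and TRA2 genes took 21.9 to 24.2% and then 19.1 to 20.3%. Neither share overlapped between the states, and the same held for each of the other gene groups. SNRP genes held 14.7% ± 0.625 (SD, n = 9) and 13.2% ± 0.516 (SD, n = 6), the SF3A, SF3B and U2AF genes 10.7% ± 0.128 and 10.2% ± 0.179, and the PRPF genes 7.97% ± 0.109 and 8.81% ± 0.385. The 2 most abundant genes did not carry the hnRNP value alone, since without HNRNPH1 and HNRNPA2B1 that share was 33.1 to 35.5% and 37.1 to 37.7%. Without these 2 genes the SR and TRA2 shares and the PRPF shares also stayed apart. The SNRP shares then overlapped, at 16.35 to 18.47% in late pregnancy and 15.32 to 16.51% in lactation. So did those of the SF3A, SF3B and U2AF genes, at 12.29 to 12.79% and 11.98 to 12.47%. As parts of the same whole these shares are not independent of each other, and they are descriptions that were not tested.

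**Figure D2:**
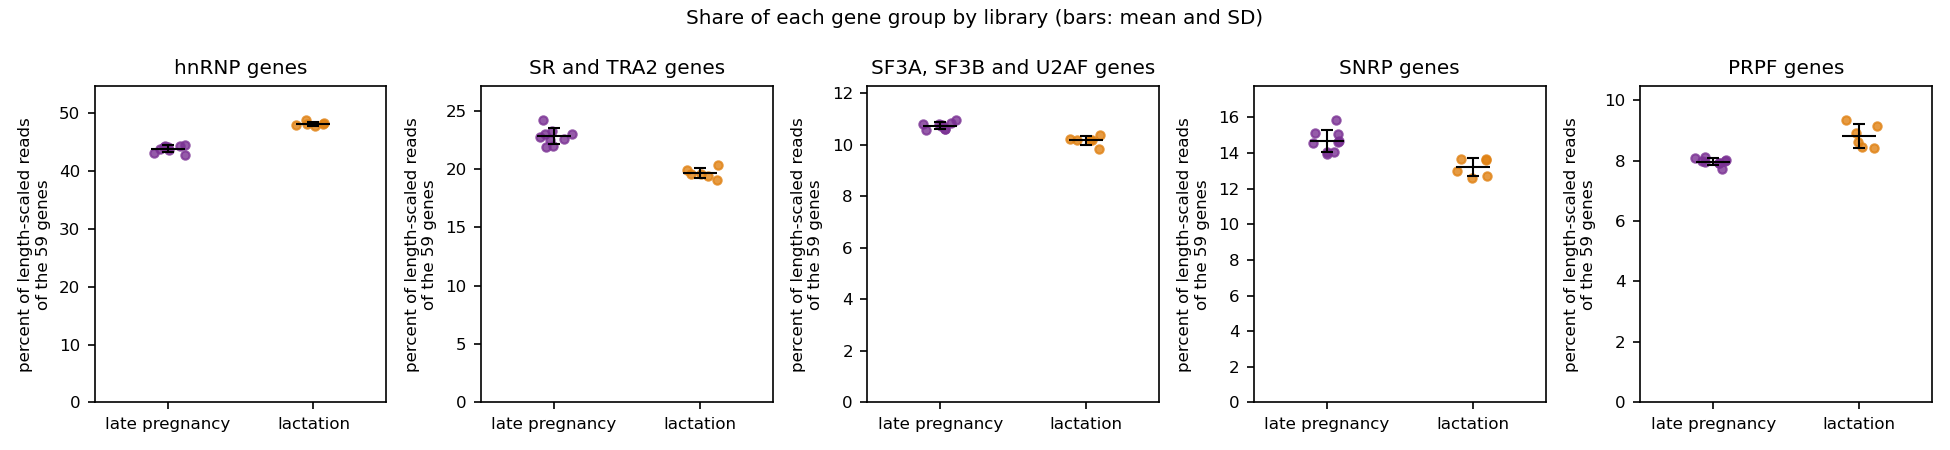
Percent of the length-scaled reads of the 59 genes taken by each gene group in each library (points; 9 in late pregnancy, 6 in lactation), with mean and SD. The hnRNP share is 42.7 to 44.6% in late pregnancy and 47.8 to 48.8% in lactation, and the SR and TRA2 share is 21.9 to 24.2% and 19.1 to 20.3%.

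Among SR genes, SRSF11, SRSF7 and SRSF10 fell most clearly. SRSF11, an SR-related nuclear protein, ranged from 197.5 to 258.3 CPM (median 217.8) in late pregnancy and from 125.6 to 135.8 CPM (median 131.3) in lactation. All lactation libraries lay below all late pregnancy libraries, a log2 change of -0.78 ± 0.06 (SE, adjusted p = 1.4e-09). SRSF7, which also links splicing to mRNA export, ran from 83.6 to 102.5 CPM (median 92.1) and then from 52.7 to 64.7 CPM (median 57.0). The states again stood apart, with a log2 change of -0.66 ± 0.06 (adjusted p = 2.98e-09). SRSF10, a regulator whose activity depends on its phosphorylation, was 82.4 to 91.9 CPM (median 86.7) in late pregnancy and 55.3 to 66.3 CPM (median 63.6) in lactation, without overlap and with a log2 change of -0.48 ± 0.05 (adjusted p = 4.02e-08).

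Smaller falls were called for SRSF5 (-0.34), SRSF1 (-0.25), SRSF3 (-0.25) and TRA2A (-0.15), all on the log2 scale. SRSF1, the archetypal SR protein, was separated between the states at 227.5 to 260.9 CPM and 192.9 to 215.5 CPM, whereas the libraries of SRSF5, SRSF3 and TRA2A overlapped. SRSF12 had the largest fall in value (-1.47 ± 0.46, adjusted p = 0.00843), but at 0.26 to 0.91 CPM and 0 to 0.41 CPM, with at least 1 library at 0 reads and overlapping states. The most stable SR gene was SRSF6 at 277.3 to 360.0 CPM and 278.5 to 357.0 CPM, a log2 change of 0.00 ± 0.07 (adjusted p = 0.977). TRA2B and SRSF9 did not pass the test, with log2 changes of 0.04 and -0.10. Reads of TRA2A were mostly placed at more than 1 position (22.5% unique), and on unique reads its change was -0.19 (adjusted p = 0.129). In SRSF5, with 63.3% unique reads, the fall remained called at -0.27 (adjusted p = 0.00271).

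Among the hnRNP genes, HNRNPA0 fell and HNRNPH2 rose the most. HNRNPA0, a member of the A/B family that binds AU-rich RNA, had 16.5 to 20.3 CPM (median 18.4) in late pregnancy and 8.38 to 12.7 CPM (median 11.1) in lactation. Its states did not overlap, and the log2 change was -0.71 ± 0.08 (adjusted p = 3.1e-07). HNRNPD, also known as AUF1 and a regulator of mRNA decay, went from 78.6 to 95.5 CPM (median 83.5) down to 59.7 to 75.4 CPM (median 66.0), a log2 change of -0.37 ± 0.06 (adjusted p = 3.55e-05). HNRNPF and HNRNPM, both splicing regulators, were lower by smaller amounts, with log2 changes of -0.25 and -0.23 and no overlap between states.

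HNRNPH2 had 33.1 to 37.1 CPM (median 34.9) in late pregnancy and 47.2 to 53.4 CPM (median 51.5) in lactation. Every lactation library was above every late pregnancy library, and the log2 change was 0.53 ± 0.05 (adjusted p = 2.32e-09). HNRNPUL1 and HNRNPUL2, nuclear proteins related to HNRNPU that take part in the DNA damage response, were higher by 0.40 ± 0.06 and 0.35 ± 0.05. HNRNPAB, which binds single-stranded nucleic acid, ranged from 100.3 to 128.7 CPM (median 120.0) and then from 134.5 to 159.4 CPM (median 157.4), a log2 change of 0.39 ± 0.06 (adjusted p = 7.47e-06). HNRNPA2B1 was 606.4 to 685.0 CPM (median 640.4) and 728.9 to 841.7 CPM (median 771.4), a log2 change of 0.30 ± 0.05 (adjusted p = 1.83e-05). These 5 higher genes had no overlap between states under TMM scaling, but with library size alone all 5 were lower.

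Under TMM scaling no change was called for HNRNPU, a scaffold protein that binds RNA and chromatin, at 235.8 to 251.7 CPM and 232.9 to 264.1 CPM (log2 change 0.00 ± 0.04, adjusted p = 0.947). Nor did HNRNPL (0.04), HNRNPA3 (-0.01), HNRNPR (-0.03), HNRNPH3 (-0.10), HNRNPH1 (0.11) or HNRNPK (0.07) pass the test. With upper quartile scaling, the quantile-normalized RPKM and library size with or without milk protein genes, HNRNPU was called lower in lactation. HNRNPK had only 5.86% of its exon reads placed uniquely, so its level is uncertain. On unique reads HNRNPH1 passed the test at 0.15 (adjusted p = 0.0149), and HNRNPA2B1, with 77.7% unique reads, stayed called at 0.38.

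**Figure D3:**
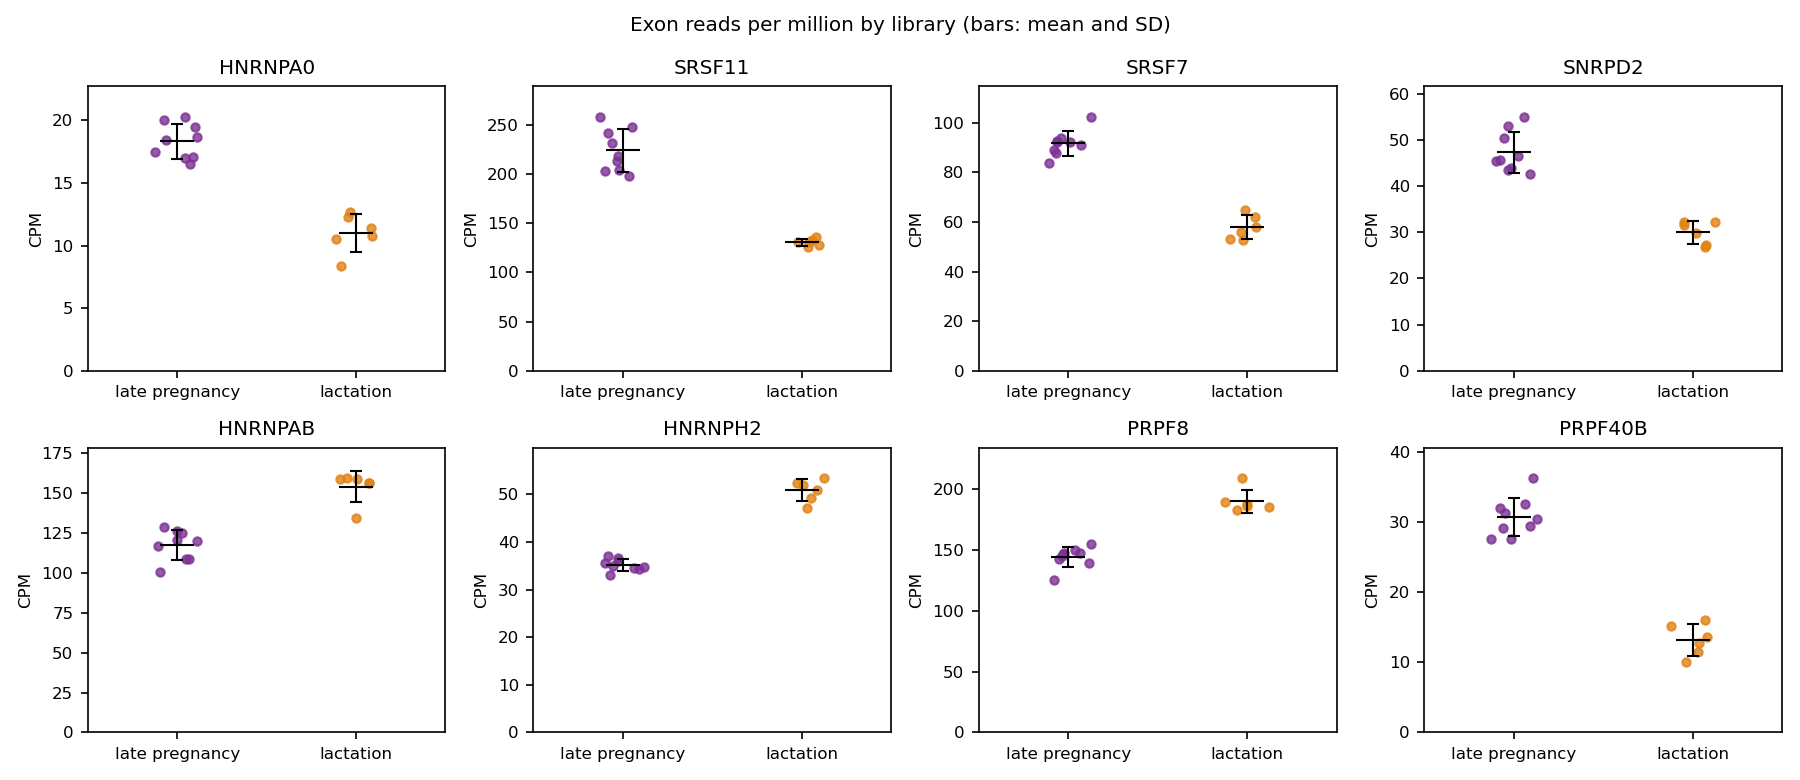
CPM after TMM scaling in each library (points; 9 in late pregnancy, 6 in lactation) for 8 genes, with mean and SD. The states do not overlap in any of the 8, with HNRNPA0, SRSF11, SRSF7, SNRPD2 and PRPF40B lower in lactation and HNRNPAB, HNRNPH2 and PRPF8 higher, the last 3 being lower with library size alone.

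The PRPF genes held both the largest well-measured fall of the 59 genes and most of the rises. PRPF40B, a protein associated with U1, had 27.6 to 36.2 CPM (median 30.4) in late pregnancy and 10.1 to 16.01 CPM (median 13.1) in lactation. The states did not overlap, and its level was 2.29-fold lower (log2 change -1.19 ± 0.09, adjusted p = 4.76e-10). PRPF39, another U1-associated protein, fell from 84.8 to 103.2 CPM (median 93.4) to 57.4 to 68.1 CPM (median 61.0), a log2 change of -0.61 ± 0.06 (adjusted p = 1.11e-08). The other PRPF genes, which act mainly in the U4/U6.U5 particle and the catalytic complex, did not follow this pair.

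PRPF8, the large core protein of the catalytic centre, ranged from 125.1 to 154.7 CPM (median 146.5) in late pregnancy and from 182.5 to 209.0 CPM (median 186.9) in lactation, a log2 change of 0.40 ± 0.05 (adjusted p = 8.54e-07). PRPF19, a ubiquitin ligase of the activating complex, was at 41.5 to 50.3 CPM (median 44.2) and 54.9 to 64.5 CPM (median 60.9), a log2 change of 0.41 ± 0.06 (adjusted p = 3.53e-06). PRPF3, a U4/U6 protein, was at 33.4 to 35.7 CPM (median 34.6) and 36.9 to 46.6 CPM (median 44.3), a log2 change of 0.30 ± 0.05 (adjusted p = 4.74e-05). In all 3 genes the states did not overlap, and in all 3 the direction was lower with library size alone. PRPF18 (0.30), PRPF31 (0.26), PRPF4 (0.25), PRPF38B (0.17) and PRPF4B (0.12) were also higher, and PRPF6 (0.03) and PRPF38A (0.05) did not pass. Of these, PRPF38B and PRPF4B turned to -0.04 and -0.09 with library size counted without milk protein genes.

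Of the SNRP genes, SNRPD2 fell most. SNRPD2, part of the Sm ring shared by the major snRNPs, had 42.6 to 55.1 CPM (median 45.7) in late pregnancy and 26.9 to 32.3 CPM (median 30.7) in lactation, a log2 change of -0.67 ± 0.07 (adjusted p = 5.98e-08). It was the single SNRP gene whose states did not overlap. Of the other Sm D proteins, SNRPD1 and SNRPD3 did not pass the test at -0.07 and 0.06. SNRPA, a U1 protein, was lower by -0.51 ± 0.09 (adjusted p = 8.14e-05), SNRPF, another Sm protein, by -0.40 ± 0.08 (adjusted p = 0.000223), SNRPB2, a U2 protein, by -0.33 ± 0.07 (adjusted p = 0.000536) and SNRPB by -0.12 ± 0.05 (adjusted p = 0.0482), all on the log2 scale. SNRPC, a U1 protein, was the least changed at -0.03, and SNRPE did not pass at -0.12. The gene model of SNRPF overlaps that of CCDC38, and the library kit does not keep the strand. The unique share of reads was 79.2% for SNRPD2, 55.3% for SNRPD1 and 53.7% for SNRPB2, whose fall stayed called on unique reads at -0.38.

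In the U2-associated group SF3B1, the largest SF3B subunit, which holds the branch point, ranged from 539.7 to 624.0 CPM (median 594.1) in late pregnancy and from 421.3 to 480.4 CPM (median 437.1) in lactation. The states were fully apart, with a log2 change of -0.40 ± 0.05 (adjusted p = 8.47e-07). SF3B5, a small subunit of the same complex, was lower by -0.39 ± 0.09 (adjusted p = 0.000767), also without overlap. The other SF3B subunits did not pass: SF3B2 at -0.11, SF3B3 at 0.11 and SF3B4 at 0.05. Among SF3A subunits only SF3A3 was called, at -0.15, with SF3A1 at 0.07 and SF3A2 at -0.08. The U2AF subunits went in opposite directions under TMM scaling, with U2AF1, which reads the AG at the end of the intron, lower by -0.28 ± 0.06 and U2AF2, which binds the pyrimidine tract before it, higher by 0.18 ± 0.05, though U2AF2 was at -0.03 with library size counted without milk protein genes and at -1.72 with library size alone.

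Ratios between related genes within a library avoid the scaling altogether. The 24 pairs listed for this were chosen with earlier results of these data known, so their p-values are descriptive. Of the 24, 17 had both genes in the table. The log2 ratio of reads per kb differed between the states in 13 of the 17 (two-sided exact permutation test of the state labels, adjusted over the 17 pairs). The smallest p this design allows is 0.0004. In 9 pairs the states were fully apart. HNRNPH1, HNRNPA2B1 and HNRNPUL1 recur across pairs, so the pairs are not independent results. Ratios of other gene pairs were not tested, so no share for pairs in general can be set beside these counts. Of all single genes tested by edgeR, 68.4% were called and 40.2% showed no overlap. The U2AF1 to U2AF2 ratio was 0.668 to 0.736 (median 0.684) in late pregnancy and 0.427 to 0.548 (median 0.513) in lactation (exact permutation p = 0.0004, adjusted p = 0.000755), without overlap.

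HNRNPA0 to HNRNPA2B1 went from 0.060 to 0.077 (median 0.067) to 0.026 to 0.039 (median 0.034), a difference of -1.03. HNRNPAB to HNRNPD rose from 1.02 to 1.41 (median 1.18) to 1.61 to 2.38 (median 2.12), a difference of 0.76. Both had an exact permutation p of 0.0004 and an adjusted p of 0.000755. Within the H and F family, HNRNPH2 gained on HNRNPH1, whose ratio to it went from a median of 13.5 to 9.94, and HNRNPF and HNRNPH3 lost against HNRNPH1, by -0.36 and -0.21 in log2 ratio.

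Among SR pairs the SRSF5 to SRSF6 ratio fell from a median of 0.963 to 0.767 without overlap. SRSF3 to SRSF7 went the other way, from 0.787 to 1.04, with overlapping libraries (exact permutation p = 0.0016, adjusted p = 0.00247). HNRNPU to HNRNPUL1 fell by -0.40 and HNRNPA3 to HNRNPA2B1 by -0.31 in log2 ratio, both called. TRA2A/TRA2B (-0.19, exact permutation p = 0.0212, adjusted p = 0.030) and SRSF1/SRSF9 (-0.15, exact permutation p = 0.0364, adjusted p = 0.0476) lay near the threshold. On unique reads their adjusted values were 0.156 and 0.0509. HNRNPUL2 to HNRNPUL1 (-0.06), SNRPA to SNRPB2 (-0.16), PRPF38A to PRPF38B (-0.12) and SRSF10/SRSF12 (0.98) did not pass. The last rests on the few reads of SRSF12. Adding 5 reads in place of 0.5 to each count turned it to -0.64, which passed the permutation test (adjusted p = 0.013).

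**Figure D4:**
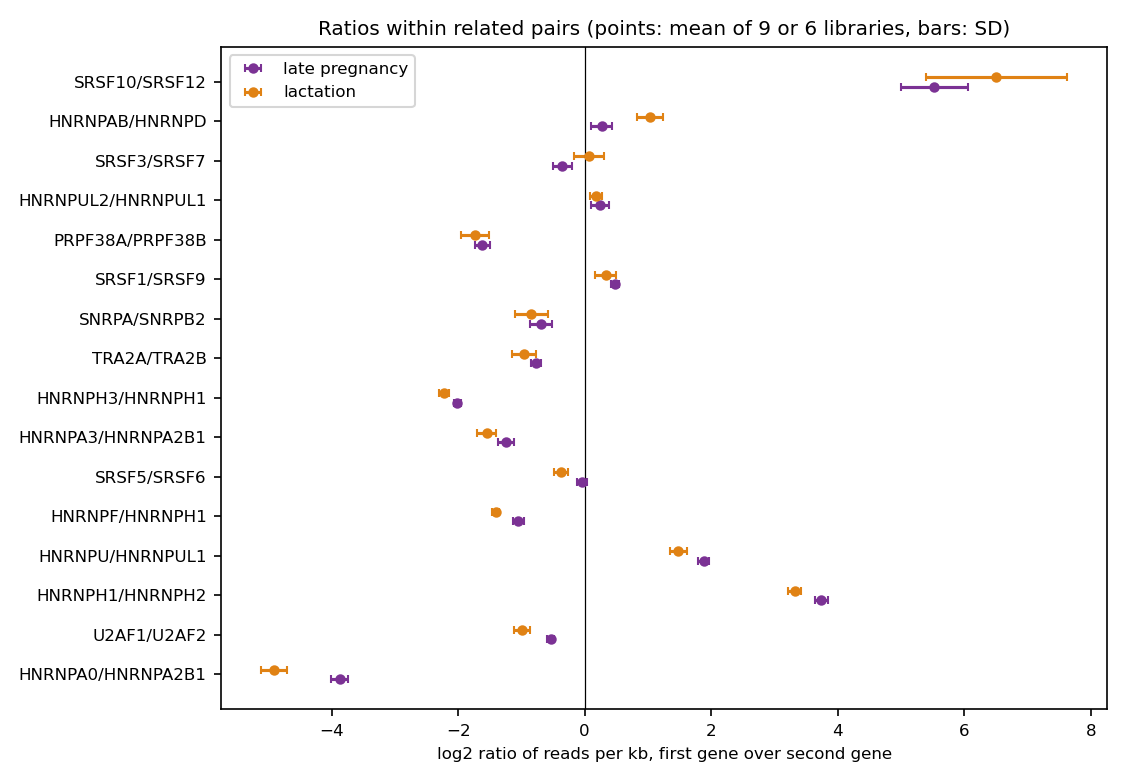
Mean log2 ratio of reads per kb, first gene over second, in late pregnancy (9 libraries) and lactation (6 libraries) for 16 of the 17 related pairs, with SD bars. The HNRNPAB/HNRNPD and HNRNPA0/HNRNPA2B1 ratios differ by 0.76 and -1.03 between the states, and HNRNPUL2/HNRNPUL1 by -0.06.

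Reads inside introns are a second readout of the same genes, which exon counts leave out. They can come from unspliced transcripts, retained introns or unannotated exons, and which of these was not tested. The ratio of intron to exon reads was tested for 52 of the 59 genes. It was higher in lactation in 11 and lower in 2, while 39 did not pass (edgeR, adjusted p under 0.05). Over all 9725 genes tested, 17.6% were higher and 16% lower. Of the 15 hnRNP genes tested, 6 were higher and 0 lower, whereas of 9 SR and TRA2 genes 0 were higher and 1 lower. HNRNPH2, SF3B4, SF3B5, SNRPD1, SNRPD2 and SRSF1 averaged under 10 intron reads per library and SRSF12 under 10 exon reads, so these 7 were not tested.

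HNRNPU (chr12:30571076-30580475 in the deposited table, whose build the labels name as Oar_v3.1, 14 exons) had the largest rise. Intron reads were 4.41 to 6.04% of its reads (median 4.57) in late pregnancy and 7.72 to 10.2% (median 9.50) in lactation. Every lactation library was higher, and the ratio rose by 0.96 ± 0.09 on the log2 scale (adjusted p = 3.29e-11). No change of its exon reads was called under TMM scaling, though they were called lower with other scalings. HNRNPA2B1 (chr4:69718239-69727907, 12 exons) went from 7.88 to 9.53% (median 8.61) to 12.2 to 15.1% (median 12.9), a rise of 0.65 ± 0.07 (adjusted p = 3.65e-09) that came on top of the rise in its exon reads. PRPF39 (chr18:53757609-53792421, 18 exons) went from 11.6 to 14.1% (median 13.1) to 15.2 to 20.4% (median 19.3), a rise of 0.58 ± 0.09 (adjusted p = 4.57e-06), with exon reads down. Its intron reads taken alone did not change by the test, at -0.08 (adjusted p = 0.464).

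SF3A1, an SF3A subunit, rose by 0.68 ± 0.15 (adjusted p = 0.000647), from 2.92 to 6.22% (median 4.91) to 6.01 to 8.74% (median 7.17), on an average of 43.2 intron reads per library and with overlap. The ratio also rose in SNRPC (0.48), SNRPB2 (0.47), SF3B3 (0.34), HNRNPD (0.33), HNRNPF (0.31), HNRNPH3 (0.30) and HNRNPM (0.26). Intron reads taken alone were called higher in SF3A1 (0.70), SNRPC (0.42) and SF3B3 (0.39). They were not called in HNRNPD (-0.07), HNRNPF (0.01), HNRNPM (-0.01), SNRPB2 (0.09) or HNRNPH3 (0.16, edgeR adjusted p = 0.058). Exon reads of HNRNPD, HNRNPF, HNRNPM and SNRPB2 were called lower under TMM scaling. The rise of the SF3B3 ratio rested on lactation MM pool 2 for its call, being 0.26 (adjusted p = 0.067) without it. The intron shares of HNRNPD, HNRNPF, HNRNPH3 and HNRNPM had no overlap between states. HNRNPD carried many intron reads in both states, at 47.2 to 52.5% and 54.6 to 58.8% of its reads. The lower ratios were those of SRSF7 (-0.27 ± 0.09, adjusted p = 0.0197) and PRPF31 (-0.48 ± 0.18, adjusted p = 0.0335), with overlap in both. Without lactation HM pool 1 the rises numbered 11 and the falls 1, since SRSF7 had an adjusted p of 0.0807. PRPF31 was at -0.39 (adjusted p = 0.108) without lactation LM pool 1 and at -0.34 (adjusted p = 0.161) without lactation MM pool 2. The count of falls was 1 also without lactation HM pool 2 or MM pool 2 and 4 without late pregnancy LM pool 1.

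Reads across exon-intron borders, set against reads across exon-exon junctions, gave a narrower picture. This count was chosen after the data had been seen and could be made for 44 genes, of which 7 were higher and 1 lower. Over all 4658 genes so tested, 10.7% were higher and 10% lower. HNRNPU (0.65), SF3A1 (0.68), HNRNPM (0.52) and SF3B3 (0.52) were higher by both counts. Of the other rises, 6 were not called by border reads, namely HNRNPA2B1 (0.17, adjusted p = 0.142), PRPF39 (0.05, adjusted p = 0.81), HNRNPD (-0.01, adjusted p = 0.951), HNRNPF (0.24, adjusted p = 0.563), HNRNPH3 (0.12, adjusted p = 0.438) and SNRPB2 (0.33, adjusted p = 0.488), and SNRPC could not be tested. The falls of SRSF7 (-0.11, adjusted p = 0.502) and PRPF31 (-0.20, adjusted p = 0.721) were not called either. SRSF5 (0.49), U2AF2 (0.44) and HNRNPH1 (0.29) were higher by border reads only, and SRSF10 (-0.74) was lower by border reads only.

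**Figure D5:**
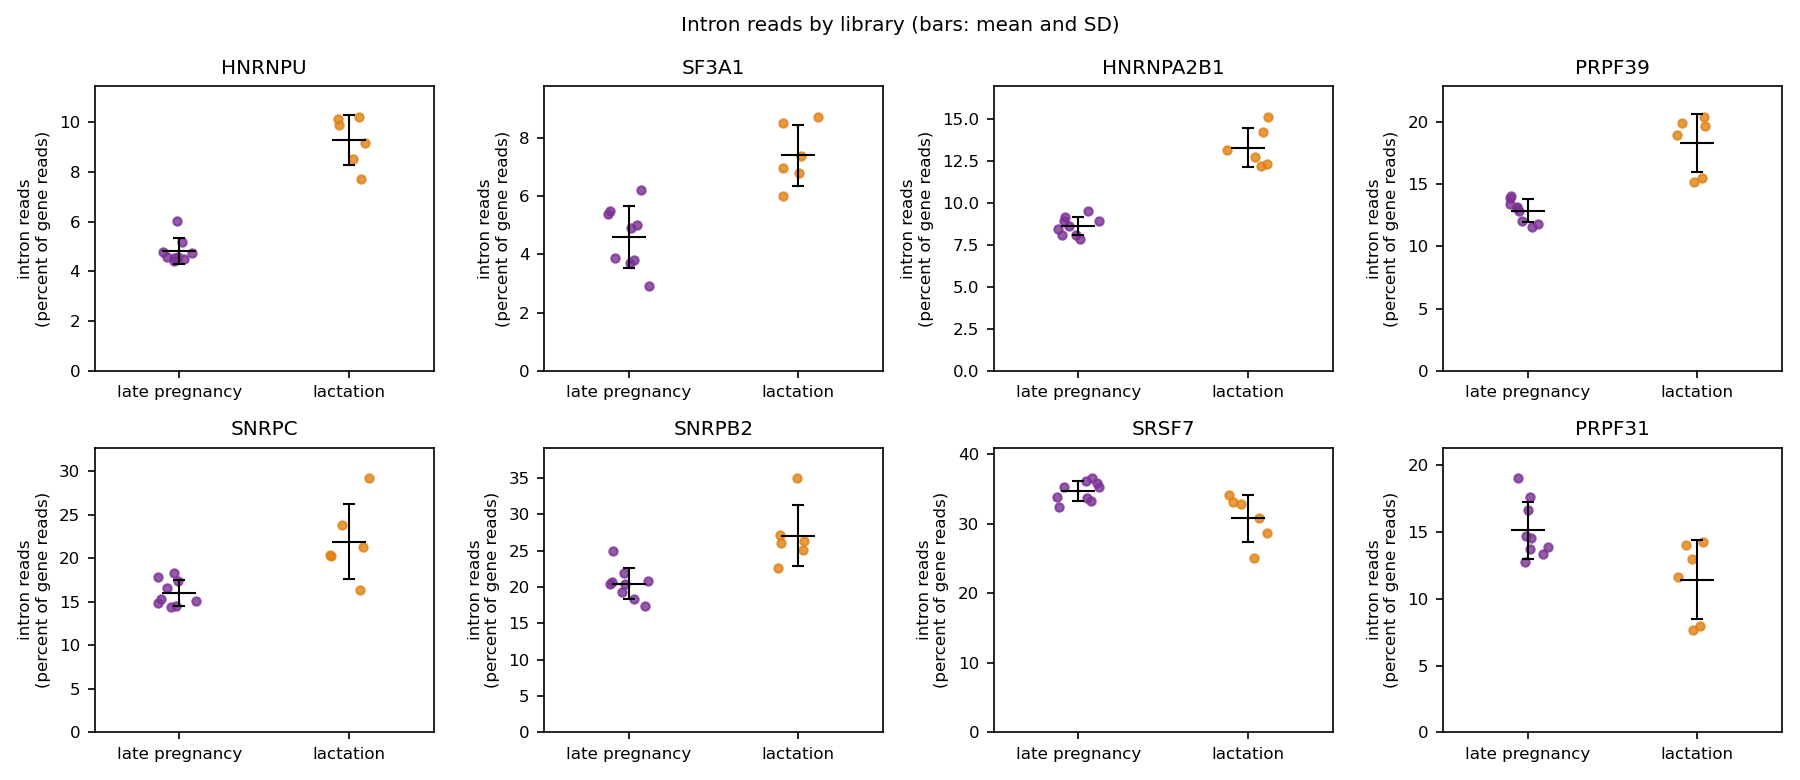
Intron reads as percent of all reads of the gene in each library (points; 9 in late pregnancy, 6 in lactation) for 8 genes, with mean and SD. HNRNPU goes from 4.41 to 6.04% to 7.72 to 10.2%, HNRNPA2B1 and PRPF39 also show no overlap, and SRSF7 and PRPF31 are lower with overlapping libraries.

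The feeding of the ewes' dams was compared within late pregnancy, with 3 pools for each of the HM, MM and LM groups. By edgeR 0 of the 59 genes passed, as did 0% of all genes. At an unadjusted p under 0.05 there was 1 gene of the 59, beside 4.15% of all genes. It was SRSF3, with 25.5 ± 1.06 CPM in HM, 26.4 ± 0.742 in LM and 30.0 ± 1.42 in MM (mean ± SD). Its adjusted p was 0.9997. DESeq2 called 0 of the 59 as well, though 20 of all 13744 genes it tested. For the state change by dam group 0 of the 59 passed, again 0% of all genes, and 3 had an unadjusted p under 0.05, namely SRSF3, PRPF40B and SRSF6, beside 6.56% of all genes. SRSF3 changed between states by -0.41 in MM, -0.38 in LM and 0.05 in HM on the log2 scale. The adjusted p of that difference, by edgeR, was 0.735. PRPF40B was lower in each of the 3 dam groups, by -0.93 in MM, -1.30 in HM and -1.47 in LM. These genes were singled out by their p.

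Other genes of the splicing pathway were followed from a list of 138, of which 126 were tested. Of these 53 were lower and 30 higher, with a median log2 change of -0.10, beside 35.2% lower, 33.1% higher and a median of -0.03 over all genes, and the counts of the smaller lists below stand against the same shares. Of the SR protein kinases, which phosphorylate SR proteins, 5 of 7 were lower and 0 higher. SRPK2 was at -1.43 ± 0.13, CLK1 at -0.44 ± 0.08, CLK4 at -0.36 ± 0.09, SRPK1 at -0.22 ± 0.08 and CLK3 at -0.20 ± 0.06, all in log2. In the list of U1, tri-snRNP and LSM genes 11 of 20 were lower and 5 higher. LSM2 (-0.54), LSM5 (-0.55) and LSM7 (-0.50), parts of the ring on U6 RNA, were among the lower, and SNRNP200 (0.21) and EFTUD2 (0.30), the helicase and GTPase that sit beside PRPF8, were among the higher under TMM scaling.

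Most helicases and step factors around PRPF19 did not pass (12 of 20), with 4 lower and 4 higher. Of the U2-associated partners 3 of 14 were lower and 3 higher, RBM25 being at 0.69 ± 0.05 and U2SURP at -0.46 ± 0.05. The exon junction and export list had 9 of 18 lower and 5 higher, the snRNP assembly list 4 of 14 lower and 3 higher. Other splicing regulators had 17 of 33 lower and 10 higher. Some relatives diverged there, picked here by their values. PTBP3 was at 1.01 ± 0.06 against PTBP2 at -0.57 ± 0.10. MBNL1 was at -0.69 ± 0.07 against MBNL3 at 1.09 ± 0.21, the latter at means of only 1.39 and 3.03 CPM. Other relatives went the same way, with MBNL2 lower (-0.21) like MBNL1, and both TIA1 (-1.19 ± 0.06) and TIAL1 (-0.36 ± 0.06) lower.

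The summed RNA of cell type markers differed between the states. Summed dividing-cell markers were 67.7 to 149.97 CPM in late pregnancy and 6.37 to 20.3 CPM in lactation, with 6 of 6 genes lower. Leukocyte markers went from 80.1 to 107.2 CPM to 46.9 to 59.3 CPM (5 of 6 lower), endothelial markers from 140.4 to 191.6 CPM to 85.8 to 124.0 CPM (3 of 3 tested lower) and fibroblast markers from 352.8 to 626.5 CPM to 224.9 to 371.8 CPM (3 of 4 tested lower). Luminal epithelial markers rose from 1417 to 1736 CPM to 2290 to 2551 CPM (4 of 6 higher). Most of that sum was ELF5 (means of 629 and 1100 CPM) and KRT19 (622 and 947 CPM), while KRT8 and CDH1 did not pass. Myoepithelial markers were 549.2 to 621.0 CPM and 519.6 to 772.3 CPM, with 3 of 5 tested higher and 1 lower. Adipocyte markers stayed low, at 6.15 to 27.4 CPM and 6.85 to 17.1 CPM, and 0 of 3 tested were called by edgeR, with 0 at an unadjusted p under 0.05. No defining marker was at 0 in all libraries. The part of these shifts in the changes of the splicing genes was not tested.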

How the data were processed

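The authors sequenced pooled mammary RNA (TruSeq V2 kit, 100-base paired reads on an Illumina HiSeq, 2 lanes per library later combined) and mapped it in CLC Genomics Workbench. They deposited, per the file headers, exon, intron, junction and whole-gene read counts of each library, with RPKM and its quantile-normalized form. The labels name Oar_v3.1 and the study's methods another sheep genome version, and the aligner settings are not given in the sources used here. Columns of the authors' own comparisons (fold changes and p-values) were not used. No sequence is printed, since no genome was used here.

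Exon read counts (whole-gene counts for 5583 features with no annotated transcript) were tested across all genes with edgeR 4.0.16 (R 4.3.3, quasi-likelihood F-test, TMM, filterByExpr), with Benjamini-Hochberg adjustment at 0.05, on 13345 genes. Standard errors are the log2 change divided by the square root of F. Intron and exon counts were set in one edgeR model with a term for each library, over genes averaging at least 10 reads of each kind. Paralogue ratios used 0.5 added reads and an exact permutation test (scipy 1.17.1). limma 3.58.1 and DESeq2 1.42.0 were alternatives. The scripts were tested on simulated data with 200 changed genes. Library depth, 7597938 to 25679416 reads on genes, bounds the precision of low genes such as SRSF12.

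The genes, related pairs and gene lists were chosen with earlier results of these data known. Named in each gene group were the 3 largest called rises and falls, the least changed gene and those against the group's majority, as well as the 5 largest changes of the intron ratio and every tested pair; other genes are given as values, and 1 gene with its pair is counted but not reported here. Libraries were not paired by replicate number, since which pools share ewes is not given. Correlations of deviations between same-numbered pools ran from -0.045 to 0.120, which cannot show whether such pools share ewes.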

Additional observations from a re-analysis of the deposited data

Results flagged for a closer look

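Of 152 groups of 9 or 6 libraries examined, 14 held a library far from the others by Dixon's criterion, where chance gives about 1 in 20. No difference of the state change between dam groups passed the test.

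Lactation HM pool 1 was the library most often set apart. Its intron reads made up 34.4% of reads outside milk protein genes, against 18.2 to 20.7% in the other lactation libraries. CLEC16A held 24.4% of these intron reads there and 1.07 to 2.11% in the other lactation libraries, and GSTCD 14.3% and 0.624 to 1.19%. For the 59 splicing genes the intron share of that pool was 20.9%, against 19.9 to 20.7% in the others. In the same pool HNRNPAB was low, at 134.5 CPM against 156.1 to 159.4, and PRPF8 high, at 209.0 CPM against 182.5 to 188.9. Late pregnancy HM pool 1 had the highest intron share of its group outside milk protein genes, 19.3% against 17.1 to 17.9%, and the highest HNRNPU intron share, 6.04% against 4.41 to 5.18%.

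The other libraries set apart in 1 gene each were late pregnancy LM pool 1 for HNRNPA3 (72.6 CPM against 83.5 to 94.5), late pregnancy HM pool 2 for SNRPA (10.7 CPM against 14.4 to 16.8), late pregnancy HM pool 3 for SNRPD3 (39.0 CPM against 32.3 to 35.3) and late pregnancy LM pool 2 for U2AF2 (44.6 CPM against 49.8 to 54.5). In lactation MM pool 2 HNRNPH1 was 520.0 CPM against 449.9 to 474.7 and the SF3B3 intron share 10.2% against 7.28 to 8.10%. Lactation LM pool 1 was low for SRSF10 (55.3 CPM against 62.8 to 66.3) and TRA2A (24.6 CPM against 29.0 to 31.4). Lactation HM pool 2 had an SNRPB2 intron share of 35.0% against 22.6 to 27.2%.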

How the results depend on the processing

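Scaling had the greatest effect. The 23 lower and 14 higher splicing genes became 59 and 0 with library size alone, 37 and 8 with upper quartile scaling, 39 and 9 with limma on quantile-normalized RPKM, and 41 and 6 with library size counted without milk protein genes. DESeq2, read filters, unique or whole-gene reads, single lanes and dam group or lane as a term kept both counts within 1.5 times. Library size alone turned 25 genes negative in log2 change: HNRNPA2B1 -1.60, HNRNPAB -1.52, HNRNPH1 -1.79, HNRNPH2 -1.38, HNRNPK -1.83, HNRNPL -1.87, HNRNPU -1.90, HNRNPUL1 -1.51, HNRNPUL2 -1.56, PRPF18 -1.61, PRPF19 -1.49, PRPF3 -1.60, PRPF31 -1.64, PRPF38A -1.85, PRPF38B -1.73, PRPF4 -1.66, PRPF4B -1.78, PRPF6 -1.87, PRPF8 -1.51, SF3A1 -1.83, SF3B3 -1.80, SF3B4 -1.85, SNRPD3 -1.84, TRA2B -1.87 and U2AF2 -1.72. Without milk protein genes in the library size, HNRNPK was at -0.14, HNRNPL -0.17, HNRNPU -0.21, PRPF38B -0.036, PRPF4B -0.087, PRPF6 -0.18, SF3A1 -0.14, SNRPD3 -0.14, TRA2B -0.17 and U2AF2 -0.031. With limma on quantile-normalized RPKM, HNRNPA2B1 was at -0.016, HNRNPH1 -0.24, HNRNPK -0.19, HNRNPL -0.23, HNRNPU -0.26, PRPF38B -0.021, PRPF4B -0.063, SNRPD3 -0.22, TRA2B -0.24 and U2AF2 -0.073. Upper quartile scaling put HNRNPL at -0.11, HNRNPU at -0.15, PRPF4B at -0.028 and PRPF6 at -0.12. Library size, upper quartile and TMM scaling differ by a factor per library, which shifts all genes together, whereas the quantile-normalized RPKM also moved the groups against all genes (SR and TRA2 median -0.45 relative to all genes, -0.22 under TMM).

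Leaving out 1 library at a time gave 21 to 24 lower and 13 to 15 higher genes, and only PRPF4B, SF3A3, SNRPB and TRA2A of the 37 called genes ever lost their call. Rises of the intron ratio numbered 10 to 12 and falls 1 to 4, with SF3B3, PRPF31 and SRSF7 losing their call. The 2 falls became 4 with limma on log2 ratios, 1 with the raw ratio, 1 at a minimum of 50 reads and 1 with border reads, where rises were 7 and HNRNPD was at -0.014; the cause was not tested. Called pairs numbered 11 to 13 in all runs but the one with 5 added reads, with SRSF1/SRSF9 and TRA2A/TRA2B the calls lost. With 5 added reads SRSF10/SRSF12 was called too, turned to -0.64 (permutation test, adjusted p = 0.013). Dam feeding gave 0 called splicing genes under each alternative run, where 0 to 20 of all genes were called. Its interaction with state gave 0 splicing genes, and 0 of all genes, whichever late pregnancy library was left out. Leaving out a lactation library left 1 pool in its dam group, so such runs are not counted. With a replicate block 21 genes were lower and 13 higher, PRPF4B, SNRPB and TRA2A losing their call, and 1 of 6 lactation pools correlated best with its own number.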
